A study of Mus musculus with 8 samples.

Results

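Respiratory complex I is the NADH dehydrogenase of the inner mitochondrial membrane. It oxidises NADH, passes the electrons through a flavin and a chain of iron-sulfur clusters to ubiquinone, and pumps protons as it does so. Its catalytic core is built from proteins of both genomes. The hydrophilic arm that holds the cofactors is made from nuclear genes, and the proton-pumping membrane subunits ND1 to ND6 and ND4L are encoded in mitochondrial DNA. Many nuclear accessory subunits surround the core, and a set of assembly factors builds the enzyme without being part of it. Multipotent progenitors and the stem cells above them are known to rely on the respiratory chain when they leave quiescence.

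The complex I genes were taken from the symbols of the deposited annotated array table, as every symbol beginning with Nduf and the 7 mitochondrial ND genes. This gave 52 genes of the 30918 measured, of which 45 were nuclear and 7 mitochondrial. By role, 7 of the nuclear genes encode core subunits, 29 encode accessory subunits and 7 encode assembly factors of the Ndufaf series. The remaining 2, Ndufa4 and its relative Ndufa4l2, carry the family name, although Ndufa4 is now counted as a cytochrome oxidase subunit. One further assembly factor gene, Ndufaf8, is listed under the older name 1810043H04Rik and so falls outside the naming rule. Elektra arrays gave it 5.18 ± 0.24 and wild-type arrays 5.09 ± 0.18 (SD, n = 4), with a limma adjusted p of 0.937. Ndufb1, Ndufb4b and Ndufb4c were not analysed here.

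RNA came from multipotent progenitors sorted from c-Kit-enriched marrow as LSK (lineage-negative cells with Sca-1 and c-Kit) lacking CD48 and CD150, in untreated mice on a C57Bl/6 background, with 4 arrays per genotype. Elektra mice carried 2 copies of an inactivating Slfn2 allele (Slfn2 elektra/elektra), and the controls were littermates with 2 wild-type alleles (Slfn2 wt/wt). The allele is a germline one, carried by every cell of the mouse and not by the progenitors alone. Each sample combined the bones of 2 mice according to the labels, whereas the series description counts 4 mice per genotype, and no age is given. Levels are log2 intensities and changes are Elektra minus wild type on the log2 scale. Because each gene has its own probes, levels are compared between arrays and not between genes.

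Elektra replicate 2 stood apart from the other arrays over the whole table. Its upper quartile was 3.63 against 3.80 to 3.83 elsewhere, and its lower quartile was 1.43 against 1.32 to 1.36. Of the 15460 genes above the median level, 45.1% had their lowest Elektra value in this array. Medians of the gene groups below are therefore also given without it. The markers of the sorted cell were bright in all arrays, with Kit between 8.80 and 9.23 and Ly6a, which encodes Sca-1, between 8.63 and 9.45, while of the markers excluded by the gate Slamf1, which encodes CD150, lay between 1.29 and 2.11 and Cd48 between 3.52 and 4.23, at the 75.4 percentile of all genes. Flt3, a progenitor marker, was 6.94 to 7.31 in Elektra and 7.36 to 7.49 in wild type, with no overlap (limma adjusted p = 0.884). Neutrophil markers varied most between arrays, their mean level over 6 genes running from 2.46 to 4.15 in Elektra and from 2.38 to 5.03 in wild type.

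No complex I gene differed between genotypes past the threshold. In limma, 0 of 52 passed an adjusted p of 0.05, as did 0 of all 30918 genes (0%), and the lowest adjusted p among the 52 was 0.884. At an unadjusted p under 0.05 there was 1 gene of 52, Ndufb11, against 5.5% of all genes. It was lower in Elektra, as were 2.87% of all genes at that p, and 0 of the 52 were higher, against 2.63%. By the p-values of the authors' deposited table there were 0 of 52 under 0.05, against 5.06% of all its probe sets. The 4 Elektra and 4 wild-type values overlapped in all 52 genes, whereas over the whole table they were separate for 3.23% of genes. The 95% interval of the change lay inside -1 to 1 for all 52 genes in this fit and inside -0.5 to 0.5 for 37 of them, or 71.2%, against 71.0% of all genes. In sorted samples of this kind, fewer cells of a type and less RNA per cell cannot be told apart.

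**Figure D1:**
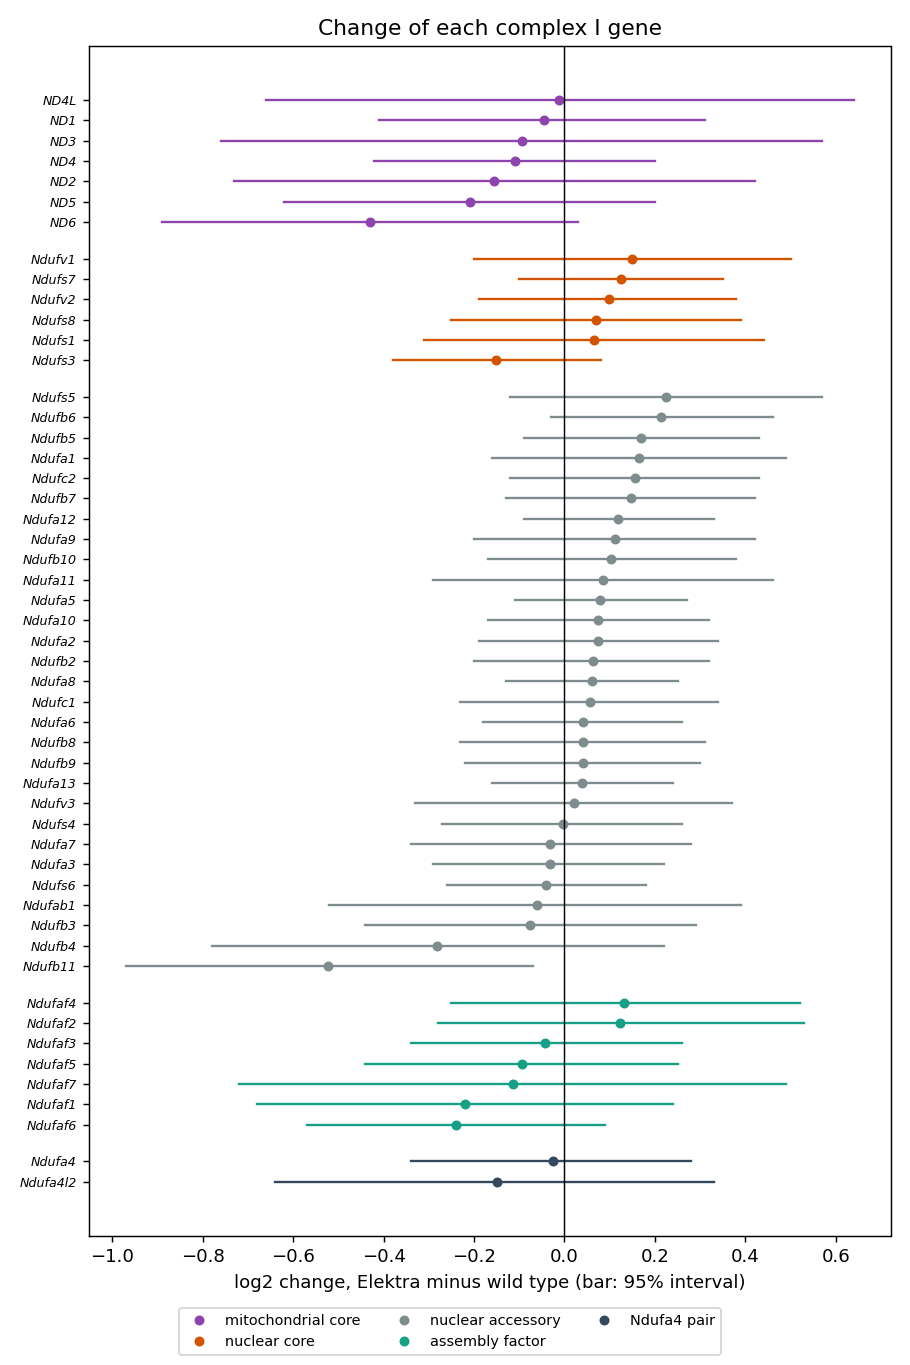
Change of 51 of the 52 complex I genes in limma, Elektra minus wild type on the log2 scale (point) with its 95% interval (bar), grouped and coloured by role. All intervals lie between -0.97 and 0.64, and only that of Ndufb11 leaves out 0.

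The 45 nuclear genes had a median change of 0.06, with 29 above 0 and 16 below. The 7 mitochondrial genes had a median of -0.11, with 0 above and 7 below. Over all genes the median was 0.01 and 53.9% were above 0, and over genes above the median level it was -0.02, with 45.7% above 0. The positions of the nuclear genes moved with the scaling of the arrays, and so did those of all genes. As deposited, 16654 of all 30918 genes were above 0. After median centring 25 of 45 nuclear genes were above 0, beside 13103 of all genes (median -0.027). After quantile normalisation 34 of 45 were above 0, beside 16202 of all genes (median 0.009). Quantile normalisation also put 1 of the 7 mitochondrial genes, ND4L, above 0. Without Elektra replicate 2 the mitochondrial median was 0.06, with 4 of 7 genes above 0, and the nuclear median was 0.13, with 35 of 45 above 0. Over all genes the median was then 0.011, with 16463 of 30918 above 0. Without Elektra replicate 3 the mitochondrial median was -0.29 and the nuclear one 0.01, beside 0.012 over all genes. With all 8 arrays kept but weighted by their fit, the mitochondrial median was -0.001, with 3 of 7 genes above 0. The difference between the medians of the 2 genomes was not tested.

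**Figure D2:**
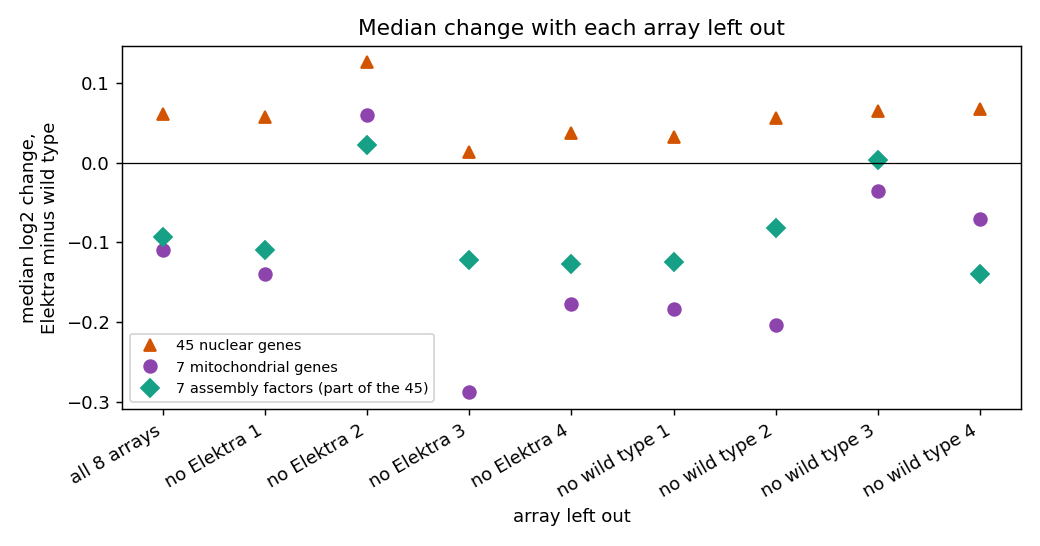
Median log2 change over the 45 nuclear genes, the 7 mitochondrial genes and the 7 assembly factors (vertical axis) with all 8 arrays and with each array left out (horizontal axis). The nuclear median stays between 0.01 and 0.13, whereas the mitochondrial median runs from -0.29 to 0.06 and is above 0 without Elektra replicate 2.

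The mitochondrial genes are described first. Mitochondrial DNA is transcribed from both strands into long precursors that are cut into single RNAs at the tRNAs between the genes. ND1, ND2, ND3, ND4, ND4L and ND5 are read from one strand, and ND6 is the only protein gene read from the other. ND4L and ND4 are known to stay joined on 1 mature RNA.

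ND1, the subunit at the junction of the membrane arm and the hydrophilic arm, was 9.95, 9.78, 10.49 and 10.16 in Elektra replicates 1 to 4 and 10.07, 9.90, 10.31 and 10.28 in wild type. ND2 was 7.50, 6.87, 8.15 and 7.61 in Elektra and 7.47, 7.32, 8.05 and 7.92 in wild type. ND3, a small subunit near the quinone site, was 6.69, 5.69, 7.33 and 6.48 in Elektra and 6.37, 6.39, 6.92 and 6.89 in wild type. In these genes the Elektra values spread to both sides of the wild-type ones, with replicate 3 on top and replicate 2 at the bottom. The changes were -0.05 (SE 0.16) for ND1, -0.16 (SE 0.26) for ND2 and -0.09 (SE 0.30) for ND3.

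ND4 and ND5 are the antiporter-like subunits at the far end of the membrane arm. ND4 was 10.35, 10.35, 10.77 and 10.76 in Elektra and 10.68, 10.42, 10.79 and 10.78 in wild type, a change of -0.11 (SE 0.14). ND5 was 9.32, 9.07, 9.81 and 9.63 in Elektra and 9.63, 9.29, 9.89 and 9.86 in wild type, a change of -0.21 (SE 0.18, limma adjusted p = 0.901). Both genes overlapped between genotypes, and in both the Elektra replicates 1 and 2 lay well below replicates 3 and 4.

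ND4L was 5.21, 4.90, 5.69 and 5.45 in Elektra and 4.83, 4.75, 5.63 and 6.08 in wild type. Its change was -0.01 (SE 0.29), the closest to 0 of the mitochondrial genes, and it was 0.24 without wild type replicate 4. The identity of this measurement is uncertain. Of the 15 genes with a known chromosome among the 10 nearest probe sets on either side by ID, 14 lie on chromosome 1 and 1 is mitochondrial. The mitochondrial one is a probe set of ATP8, whose own neighbours are likewise 14 on chromosome 1 and 1 mitochondrial. For 51 of the 53 complex I probe sets the commonest chromosome among such neighbours was the gene's own, the exceptions being ND4L and ND6. The neighbours of ND6 were mitochondrial or had no placed chromosome. Nuclear genomes are known to hold copies of mitochondrial DNA, and whether the ND4L probes read such a copy was not tested.

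ND6 ran against the other mitochondrial genes within Elektra. It was 5.34, 5.66, 4.68 and 4.74 in Elektra replicates 1 to 4 and 5.73, 5.48, 5.44 and 5.49 in wild type. Replicates 1, 3 and 4 of Elektra lay below all wild-type arrays. Replicate 2, the lowest Elektra array for all 6 other mitochondrial genes, was the highest Elektra array for ND6. Its change of -0.43 (SE 0.21, 95% interval -0.89 to 0.03) was the most negative of the 7 but did not pass (limma adjusted p = 0.884). It was -0.62 without Elektra replicate 2 (limma adjusted p = 0.936) and -0.29 without Elektra replicate 3. ND6 overlaps its neighbour ND5 at one end and is read from the opposite strand, and no source used here states whether the probes separate the strands.

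**Figure D3:**
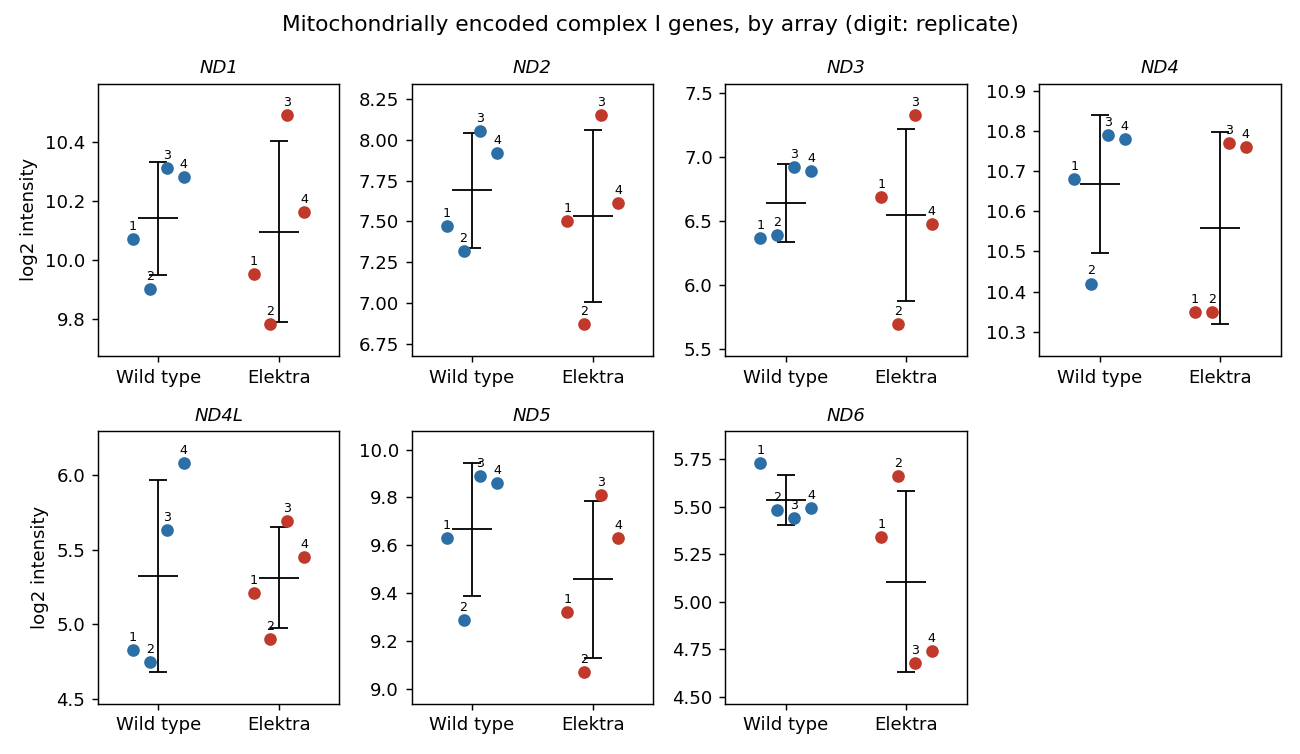
Log2 intensity of the 7 mitochondrial complex I genes in each wild-type (blue) and Elektra (red) array, with the replicate number above each point and the mean and SD of 4 arrays as black bars. Each panel has its own vertical axis, which does not start at 0. Elektra replicate 3 is the highest and replicate 2 the lowest Elektra array in every panel but that of ND6, where the order turns.

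The array-to-array order was shared across the 6 ND genes of the first strand. All 6 were highest in Elektra replicate 3 and lowest in Elektra replicate 2 among the Elektra arrays, in ND4 by less than the printed digits show. In wild type 5 of 6 were highest in replicate 3 and 5 of 6 were lowest in replicate 2. Among genes above the median level these shares were 29.4% and 45.1% in Elektra and 27.8% and 20% in wild type. The mean deviation of the 6 genes from their means over all arrays was -0.53 in Elektra replicate 2 and 0.40 in Elektra replicate 3. In wild type it ran from -0.29 in replicate 2 to 0.33 in replicate 4, with 0.29 in replicate 3. Erythroid markers took the same ends in Elektra, with a mean level over 6 genes of 3.59 in replicate 2 and 4.34 in replicate 3, and ran from 3.67 to 4.04 in wild type. Neutrophil markers were highest in wild type replicate 2, at 5.03, but in Elektra they were lowest in replicate 2, at 2.46, and highest in replicate 4, at 4.15. The part of either cell type in these levels was not tested.

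**Figure D4:**
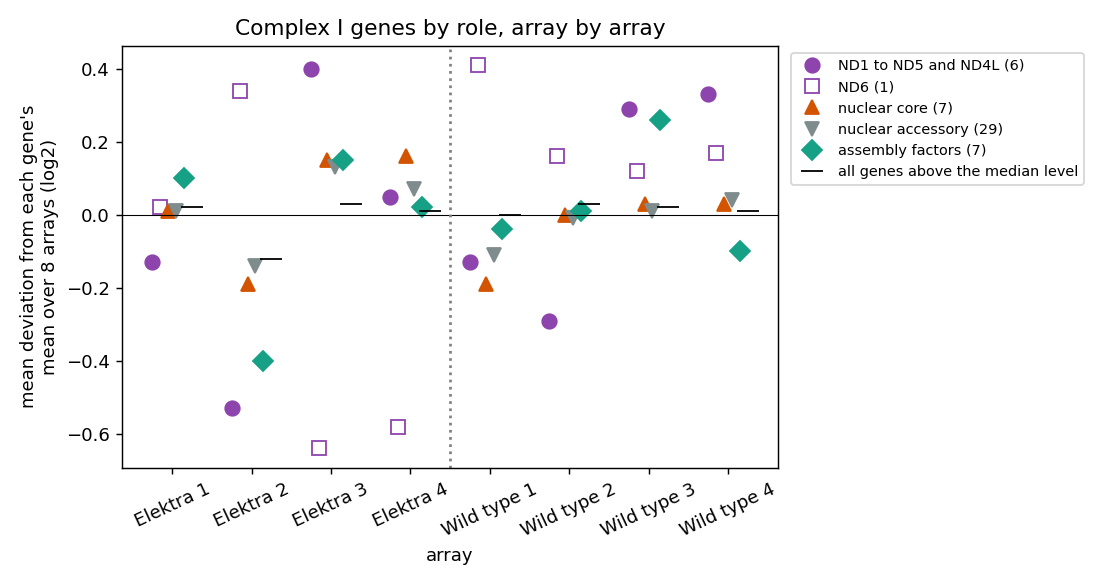
Mean deviation of each group of complex I genes from the genes' own means over the 8 arrays (vertical axis, log2) in each array (horizontal axis), with all genes above the median level as black dashes. In Elektra replicate 2 the 6 ND genes of the first strand lie at -0.53 and the assembly factors at -0.40. All genes above the median level lie at -0.12 there, while ND6 lies above 0.

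The other mitochondrial messenger RNAs, of complexes III to V, also had changes below 0. The 4 measured ran from -0.12 to -0.03, with a median of -0.07, and 0 passed. Without Elektra replicate 2 their median was -0.05, again with 4 of 4 below 0. COX2, a catalytic subunit of cytochrome oxidase, was 9.64, 9.58, 9.78 and 9.55 in Elektra and 9.69, 9.61, 9.91 and 9.82 in wild type. CYTB, of complex III, had a change of -0.07, COX1 of -0.08 and ATP8, by its brighter probe set, of -0.03. These genes are read from the same strand as the 6 ND genes but did not all share their order. Among Elektra arrays CYTB was lowest in replicate 2, COX1 in replicate 1, and COX2 and ATP8 in replicate 4. Their mean deviation was -0.09 in Elektra replicate 2 and 0.11 in replicate 3, against -0.53 and 0.40 for the 6 ND genes. COX3 and ATP6 were not analysed here. Of the 20 mitochondrial tRNA and rRNA genes 14 were above 0 and 6 below, with a median of 0.08 (0.09 without Elektra replicate 2). Of these 20, 9 were dim, below the median level of all genes. Among the 11 brighter ones, 6 were above 0 and 5 below. The mean deviation of the 20 was lowest in Elektra replicate 2, at -0.33. The 2 ribosomal RNAs among them, which are read from the same strand, differed from this list in being highest in Elektra replicate 2. The larger of them, mt-Rnr2, was 10.73 in that array and between 10.33 and 10.67 in the others, and mt-Rnr1 was 11.41 against 10.88 to 11.27.

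The nuclear core subunits form the path of the electrons. Ndufv1 and Ndufv2, with Ndufs1, make the NADH-oxidising tip, where Ndufv1 binds NADH and the flavin. Ndufs3, Ndufs7 and Ndufs8 belong to the part that reduces ubiquinone. Of the 6 core genes described here, 5 had a change above 0 and 1 below. The median over the 7 core genes was 0.10, or 0.17 without Elektra replicate 2, and 0 passed the threshold.

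Ndufv1 was 6.12, 5.61, 6.14 and 6.15 in Elektra and 5.55, 6.02, 6.02 and 5.84 in wild type. Its Elektra replicate 2 stood alone below the other 3, and the change of 0.15 (SE 0.16) was 0.28 without it. Ndufv2 was 6.36, 6.11, 6.54 and 6.51 in Elektra and 6.08, 6.31, 6.26 and 6.48 in wild type, a change of 0.10 (SE 0.13). Ndufs1, which carries several of the iron-sulfur clusters, was 4.05, 3.85, 4.60 and 4.30 in Elektra and 3.88, 4.32, 4.13 and 4.22 in wild type, a change of 0.07 (SE 0.17). The genotypes overlapped in all 3 genes of the tip.

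Ndufs7, the holder of the last cluster before ubiquinone, was 5.62, 5.41, 5.58 and 5.60 in Elektra and 5.44, 5.50, 5.52 and 5.24 in wild type, a change of 0.13 (SE 0.10). Ndufs8 was 5.02, 4.72, 5.10 and 5.20 in Elektra and 4.75, 4.74, 5.21 and 5.07 in wild type, a change of 0.07 (SE 0.15). Ndufs3 was the exception to the side taken by the others, at 4.34, 4.41, 4.63 and 4.31 in Elektra and 4.59, 4.55, 4.46 and 4.70 in wild type. Its change was -0.15 (SE 0.10, limma adjusted p = 0.889) and stayed below 0 in all 16 alternatives run, some of which cannot alter it.

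**Figure D5:**
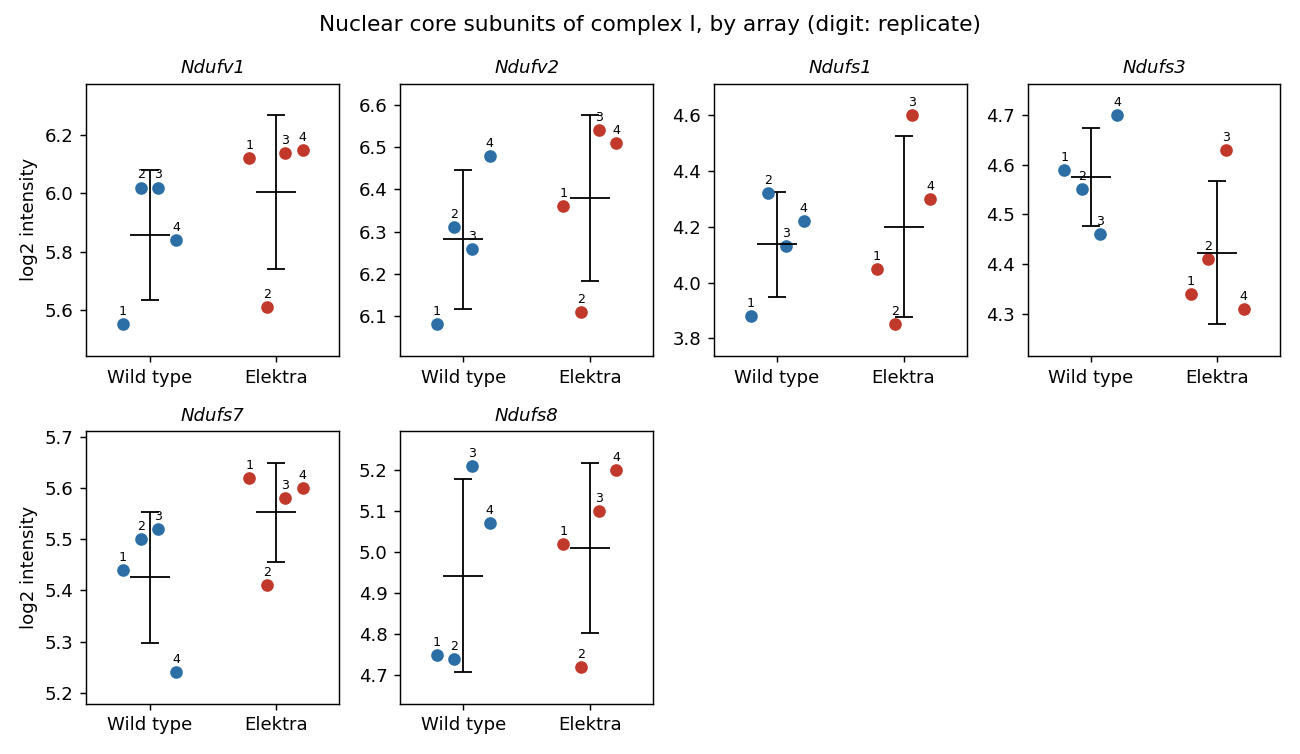
Log2 intensity of 6 nuclear core subunit genes in each wild-type (blue) and Elektra (red) array, with the replicate number above each point and the mean and SD of 4 arrays as black bars. Each panel has its own vertical axis, which does not start at 0. The genotypes overlap in every panel, and Ndufs3 is the panel in which the Elektra mean is the lower one.

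The accessory subunits do not carry electrons but are needed to build and hold the enzyme. Of the 29 genes, 21 had a change above 0 and 8 below, with a median of 0.06 (24 above 0 and a median of 0.12 without Elektra replicate 2). By family, 10 of 13 Ndufa genes, 7 of 10 Ndufb genes, both Ndufc genes and 2 of 4 Ndufs and Ndufv genes were above 0. After median centring 17 of the 29 were above 0, with a median of 0.02 beside -0.027 over all genes. After quantile normalisation 24 of the 29 were above 0, with a median of 0.105 beside 0.009 over all genes. Without Elektra replicate 3 there were 16 (median 0.02). With all arrays as deposited, the median SE was 0.12, against 0.13 over all genes. Of the 29 intervals, 25 lay inside -0.5 to 0.5. None of the 29 passed in limma, the lowest adjusted p being 0.884, with 1 gene at an unadjusted p under 0.05.

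That gene was Ndufb11, an X-linked subunit of the membrane arm. It was 2.75, 2.23, 1.83 and 2.21 in Elektra and 3.05, 2.67, 2.41 and 2.98 in wild type, so 3 of 4 Elektra arrays lay below all wild-type arrays and replicate 1 overlapped them. The change was -0.52 (SE 0.20, 95% interval -0.97 to -0.07, limma adjusted p = 0.884). It stayed below 0 on leaving out each array, between -0.69 and -0.38. Its signal was weak, at the 58.1 percentile of all genes. A single gene of 52 at such a p does not exceed the share of 5.5% seen over the whole table.

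The other accessory genes with the smallest p-values below 0 were Ndufb4, Ndufb3 and Ndufs6. Ndufb4, a membrane arm subunit, was 4.55, 3.68, 4.90 and 4.28 in Elektra and 4.48, 4.55, 4.62 and 4.89 in wild type. Its change of -0.28 (SE 0.23) was -0.06 without Elektra replicate 2. Ndufb3 had a change of -0.08 and Ndufs6, a subunit that takes part in adding the NADH-oxidising tip, one of -0.04, and both turned sign on leaving out 1 array or another.

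Above 0, the smallest p-values belonged to Ndufb6, Ndufb5, Ndufs5 and Ndufc2. Ndufb6 was 5.07, 5.10, 5.32 and 5.23 in Elektra and 4.79, 5.05, 5.15 and 4.89 in wild type, a change of 0.21 (SE 0.11, limma adjusted p = 0.884). Elektra replicates 3 and 4 lay above all wild-type arrays, and replicates 1 and 2 lay among them. Ndufb5 was 5.18, 4.96, 5.25 and 5.30 in Elektra and 4.80, 5.08, 4.97 and 5.16 in wild type, a change of 0.17 (SE 0.12), with Elektra replicate 2 among the wild-type arrays. Ndufc2, which sits beside ND2, was 8.25 ± 0.20 and 8.09 ± 0.14, a change of 0.15. Ndufs5 was 1.48 ± 0.24 and 1.26 ± 0.25, a change of 0.22 at the 24.4 percentile of all genes. These 4 stayed above 0 in all 16 alternatives, except that Ndufs5 was not tested in the one that left out dim genes. Some of the alternatives cannot alter the change of a gene with 1 probe set.

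The remaining 21 accessory genes had changes from -0.06 (Ndufab1) to 0.17 (Ndufa1). Ndufab1 is also the acyl carrier protein of mitochondrial fatty acid synthesis, and Ndufa13 is also known as Grim19. Ndufa13 had a second, dimmer probe set, at 2.13 to 2.59 in Elektra and 2.30 to 2.50 in wild type, and its brighter one gave 6.54 ± 0.06 and 6.50 ± 0.10. RefSeq lists a pseudogene named after 5 of the 29 accessory genes. These are Ndufs5, Ndufa11, Ndufs6, Ndufab1 and Ndufa12. The part of those copies in the signal was not tested.

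Sequences upstream of the nuclear genes are shown because NRF1, a transcription factor of nuclear respiratory genes, is known to bind a palindromic site in many of their promoters. Promoters of RefSeq, build GRCm38.p6, from 250 bases before to 50 after the gene start, were matched by symbol for 39 of the 45 nuclear genes. The NRF1 core, GCGC, then A and any base, then GCGC, was searched on both strands and was present in 9 of 39, or 23.1%, against 4.78% of all 27025 promoters. A pair of shorter cores were searched the same way. The ETS core CCGGAAG, bound by GABP, was present in 5 of 39, or 12.8%, against 9.12%, and the YY1 core AAGATGGCG in 5 of 39, or 12.8%, against 1.49%. Matches of different cores overlapped in 0 of the 39. The stretches below are those of the 4 genes that held the NRF1 core among the accessory genes and assembly factors with the smallest p-values in each direction. Each holds the match, in capitals, with bases around it, 5′ to 3′ on the gene's strand. Those of Ndufb4 and Ndufs6 end at the gene start, and those of Ndufs5 and Ndufaf4 end upstream of it.
Ndufb4, chr16:37654369-37654618, minus strand: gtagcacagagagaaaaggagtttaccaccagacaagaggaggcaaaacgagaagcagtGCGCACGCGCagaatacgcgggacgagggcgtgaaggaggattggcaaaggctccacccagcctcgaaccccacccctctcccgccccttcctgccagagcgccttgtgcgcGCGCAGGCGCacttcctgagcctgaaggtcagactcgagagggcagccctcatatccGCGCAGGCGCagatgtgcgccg
Ndufs5, chr4:123718215-123718344, minus strand: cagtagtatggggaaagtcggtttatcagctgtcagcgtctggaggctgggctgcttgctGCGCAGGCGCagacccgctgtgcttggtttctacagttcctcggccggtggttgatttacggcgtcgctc
Ndufs6, chr13:73328483-73328558, minus strand: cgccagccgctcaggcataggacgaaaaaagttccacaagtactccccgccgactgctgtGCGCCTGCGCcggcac
Ndufaf4, chr4:24897910-24898039, plus strand: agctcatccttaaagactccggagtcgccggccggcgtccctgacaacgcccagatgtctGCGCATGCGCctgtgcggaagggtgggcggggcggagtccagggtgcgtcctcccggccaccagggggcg

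Counted from the gene start, the match lay at bases -113 to -104 in Ndufaf4, -98 to -89 in Ndufs5 and -16 to -7 in Ndufs6, and Ndufb4 held 3 matches between -191 and -13. Genes with and without the NRF1 core had nearly the same median change, 0.06 over the 9 with it and 0.06 over the 30 without. Among the 9, 6 were above 0 and 3 below, from -0.28 for Ndufb4 to 0.22 for Ndufs5. A match to these letters describes the sequence and is not evidence of binding in these cells.

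Assembly factors join the subunits of both genomes into the enzyme. Of the 7 Ndufaf genes 2 had a change above 0 and 5 below, with a median of -0.09 and 0 past the threshold. Without Elektra replicate 2 the median was 0.02, with 4 of 7 above 0, and without wild type replicate 3 it was 0.003. All 7 had their lowest Elektra value in replicate 2, a share of 100% against 45.1% of genes above the median level. Ndufaf6 was 3.70, 3.30, 3.65 and 3.51 in Elektra and 3.62, 3.57, 4.17 and 3.75 in wild type, a change of -0.24 (SE 0.15). Ndufaf1, which works with Ecsit and Acad9 on the membrane arm, was 3.57, 3.14, 3.79 and 3.28 in Elektra and 3.09, 3.70, 3.96 and 3.91 in wild type, a change of -0.22 (SE 0.21). Above 0 were Ndufaf4, at 4.91 ± 0.29 and 4.78 ± 0.27 (SD, n = 4), and Ndufaf2, a relative of Ndufa12, at 4.23 ± 0.42 and 4.11 ± 0.06. Ndufaf7, a methyltransferase, had 4.41 in Elektra replicate 2 against 5.33 to 5.46 in the other Elektra arrays. Ndufa4 was 7.04 ± 0.22 and 7.06 ± 0.20, and Ndufa4l2, known as a hypoxia-induced gene, was dim at 1.38 ± 0.07 and 1.53 ± 0.52.

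Genes that serve complex I from outside the family also had 0 members past the threshold in the lists below. Of the 9 measured assembly factors that lack the family name 4 were above 0 and 5 below, and 6 were above 0 without Elektra replicate 2. Among them were Ecsit with a change of 0.11, Acad9 with -0.13, Nubpl, which inserts iron-sulfur clusters, with 0.26, and Timmdc1 with -0.43, or -0.14 without that array. Of 14 genes for mitochondrial RNA synthesis and stability 4 were above 0 and 10 below, with a median of -0.06, and without Elektra replicate 2 there were 7 on each side and a median of 0.01. Grsf1, which binds mitochondrial RNA in processing granules and has been tied in human cells to the ND6 transcript, was the 1 gene of the 14 whose groups were separate, against 3.23% of all genes, at 3.87, 3.46, 3.83 and 3.89 in Elektra and 3.97, 4.04, 4.56 and 4.18 in wild type. Its change was -0.43 (SE 0.15, limma adjusted p = 0.884), or -0.32 without Elektra replicate 2 (limma adjusted p = 0.936). A tie between Grsf1 and ND6 in these cells was not tested. Of 8 nuclear regulators of respiratory genes 7 were below 0, with Nrf1 itself at -0.16 and Pprc1, a coactivator, above 0 at 0.22, and without Elektra replicate 2 there were 5 below 0 and a median of -0.03 in place of -0.09. The 48 nuclear genes of complexes II to V had a median change of 0.04, with 28 above 0 and 20 below, beside 0.06 and 29 of 45 for complex I. Without Elektra replicate 2 their median was 0.11, with 33 above 0, beside 0.13 and 35 for complex I. None of the 48 passed in limma, nor did any at an unadjusted p under 0.05.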

How the data were processed

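RNA of sorted multipotent progenitors was measured on 8 Affymetrix arrays, 4 per genotype, from about 100 to 200 pg of RNA amplified by a 12 cycle PCR, per the labels' protocols. The deposited values are log2 intensities that the authors made by RMA, for which the submitters' processing notes name Affymetrix Expression Console 1.4. The authors' deposited table also holds unadjusted p-values, of which only counts are given here, and a signed fold change and log2 ratio, which were not used. For the array, no genome build was given in the sources used here. A second deposited table of log2 values differed by up to 0.29 and served as an alternative.

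Of 34390 probe sets, 31872 carried 1 symbol and 2518 none or several. The brightest probe set per gene gave 30918 genes, fitted in limma 3.58.1 (R 4.3.3; lmFit and eBayes, Benjamini-Hochberg adjustment over all genes, threshold 0.05) and tested on simulated data. Symbols of complex I genes, gene lists and named genes were chosen with earlier results of these data known. Named were the core subunits, of which 1 is not reported here, the 4 accessory genes and the 2 assembly factors with the smallest p in each direction, and Ndufa4 with Ndufa4l2. Other genes, chosen after their values were seen, are named as the ends of a range, for an array that stood alone, for a second probe set or pseudogene, or as examples from a list. Alternatives were quantile normalisation, median centring, the second table, the mean of probe sets, leaving out genes under the 40 percentile, a trended robust prior, array weights, a replicate block and leaving out each array; medians of the other gene lists without Elektra replicate 2 were added after seeing the data. The number of arrays limits the precision, and the labels call the samples biological replicates without tying them to animals. The labels do not say that replicate numbers pair the samples, so no pairs were used outside the replicate block. The correlation of same-numbered deviations from the group means was 0.135, 0.011, 0.134 and 0.055. Low correlations over all genes do not show that the samples were unpaired, so this could not decide the question. Promoters were read from RefSeq (GRCm38.p6).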

Additional observations from a re-analysis of the deposited data

Results flagged for a closer look

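A single array lay far from the other 3 of its genotype, past Dixon's 95% critical value for its gap, in 4 of 102 groups of 4 values, where chance gives about 1 in 20. In Elektra replicate 2, Ndufaf7 was 4.41 against 5.33 to 5.46 and Ndufv1 was 5.61 against 6.12 to 6.15. In Elektra replicate 4, Ndufa6 was 6.96 against 6.66 to 6.71. In wild type replicate 2, Ndufa2 was 7.21 against 7.01 to 7.04.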

How the results depend on the processing

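In limma, 0 complex I genes and 0 of all genes passed in any of the 16 alternatives run. The lowest adjusted p was 0.69 for a complex I gene, Ndufb11 with the replicate block (unadjusted p = 0.00237), and 0.0882 over all genes, without wild type replicate 4. The replicate block left the number of calls at 0, and not every sample correlated best with its own number. With the block, the lowest limma adjusted p over all genes was 0.308 in place of 0.884. The unadjusted limma p was 0.0776 in place of 0.282 for ND5 and 0.0383 in place of 0.0655 for ND6. For Ndufs5 it rose, from 0.176 to 0.23. With arrays left out in turn, the median change ran from 0.013 to 0.126 for nuclear genes, from -0.288 to 0.06 for mitochondrial genes, from 0.032 to 0.172 for core subunits, from 0.017 to 0.124 for accessory subunits and from -0.139 to 0.022 for assembly factors. Of 27 named genes 17 kept their sign in every alternative they were tested in, Ndufs5 not being tested where dim genes were left out, and 10 did not. Each named gene had 1 probe set. For such genes the mean of probe sets, the trended robust prior, leaving out dim genes and the replicate block cannot alter the change, so they could turn no sign. With array weights the change was 0.036 for ND1, 0.091 for ND3, 0.106 for ND4L and 0.027 for Ndufa4, and with quantile normalisation 0.047 for ND4L and 0.013 for Ndufa4. The cause was not tested. Leaving out arrays turned the sign within -0.178 to 0.06 for ND1, -0.361 to 0.066 for ND2, -0.355 to 0.193 for ND3, -0.203 to 0.241 for ND4L, -0.068 to 0.182 for Ndufs1, -0.248 to 0.023 for Ndufb3, -0.081 to 0.016 for Ndufs6, -0.003 to 0.322 for Ndufaf2, -0.3 to 0.093 for Ndufa4l2 and -0.095 to 0.081 for Ndufa4. With 4 arrays per genotype, the 95% interval bounded the change within 0.5 in size for 37 of 52 genes. Ndufs5, Ndufa11, Ndufs6 and Ndufa4l2 lay below the median level of all genes.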
